A study of Mus musculus with 6 samples.

Results

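YY1 binding next to the ends of genes was examined in activated mouse muscle satellite cells, the stem cells of skeletal muscle. Of the 2031 peaks in the deposited YY1 list, 3 lay on the Y chromosome and were left out. A peak was kept when the start or the end of a gene locus, as listed in the expression tables, lay within 2 kb of the peak interval. This left 623 of 2028 peaks (30.7%), and the other peaks were 632 inside a locus but more than 2 kb from any end and 773 outside loci. The 623 near-end peaks touched 892 gene symbols, 3.65% of the 24433 listed, and 453 of them (1.85%) had a near-end peak with a −log10 p of at least 6. The tables give no strand, so a listed end can be the start of a gene or its end.

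The YY1 chromatin immunoprecipitation and its input are 1 library each, from satellite cells labelled C57 and cultured for 36 h. The RNA libraries cover 2 states, satellite cells taken straight from muscle (FISC, freshly isolated) and the same cells activated by 36 h of culture (ASC), with 1 wild-type (WT) library and 1 labelled Yy1 iKO in each. With 1 library per group there is no replicate error, so every comparison describes these libraries and carries no test. The knockout allele, the agent that induces it, the age of the animals and any pooling are not stated in the labels. Yy1 itself stood at 51.0 FPKM (sequenced fragments divided by transcript length and library size) in FISC WT, 20.1 in FISC iKO, 55.2 in ASC WT and 2.03 in ASC iKO. All 8 satellite cell markers examined, Pax7 and Myod1 among them, were at 1 FPKM or more in each of the 4 libraries. Summed markers of other cells were lower in both ASC than in both FISC libraries for fibroblasts (9.63 and 6.71 against 178 and 191 FPKM), endothelial cells, pericytes and erythroid cells. The sum of 4 immune markers was highest in ASC iKO, at 14.9 FPKM against 4.16 to 6.83, with Ptprc and Adgre1 at 0 in both ASC libraries. The part of these cells in the comparisons between states was not tested.

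YY1 is a ubiquitous zinc finger transcription factor that can activate or repress genes. Its recognition sequence is built around the letters ATGG, and in many housekeeping genes a longer form, AAGATGGCG followed by GC, lies close to the transcription start. Genes with such starts often encode parts of the ribosome, the mitochondria and the splicing and protein turnover machinery. In satellite cells, leaving quiescence involves a rise in growth, mitochondrial mass and protein synthesis.

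The letters of this motif are shown first, because they were among the clearest features that near-end genes shared and that the choice of peaks had not used. RefSeq promoter windows (GRCm38.p6, 250 bases before to 50 after a start) were matched by symbol. Each line below gives 30 bases or fewer around the motif AANATGGCG, searched on both strands, with the motif in capitals, read 5′ to 3′ on the gene's strand. The position is that of the first capital, counted from the start. These coordinates are in another build than the peaks (mm9) and were not compared with them. Genes with the highest near-end peaks are shown first, where their window holds the motif. The window of Napepld, the gene at the highest peak of all, holds none.
Tpgs1, chr10:79669433-79669462, plus strand, position 5: gcccccaacaAAGATGGCGgcagtggagaa
Usp31, chr7:121707498-121707527, minus strand, position −75: tcccacagtcAATATGGCGgcctcgcagct
Txndc15, chr13:55714596-55714625, plus strand, position −44: gcccgactccAAGATGGCGtctgcagcgtc
Txndc15, chr13:55714627-55714656, plus strand, position −13: gccaggagtcAAGATGGCGgcccgcggcca
Wbscr16, chr5:134176737-134176766, minus strand, position 12: agggtgacacAAGATGGCGgcgcccataag
Cdk5rap2, chr4:70410632-70410661, minus strand, position −216: accctcaacaAATATGGCGctcgccttggc
Cdk5rap2, chr4:70410521-70410550, minus strand, position −105: gccctgagttAAGATGGCGtccaggcaaag
Cdk5rap2, chr4:70410409-70410438, minus strand, position 8: agcgccgggaAAGATGGCGgcggctgcggt
Aars2, chr17:45506841-45506870, plus strand, position 20: gcccggagctAAGATGGCGgtggcgttggc
Rrm1, chr7:102441596-102441625, plus strand, position −89: gcccacacccAATATGGCGgcaggagaact
Rrm1, chr7:102441687-102441716, plus strand, position 3: gcccacactcAATATGGCGgccaagggact
Mrps18a, chr17:46111005-46111034, plus strand, position 12: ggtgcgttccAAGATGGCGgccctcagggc

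Peaks shared by a pair of genes can share one motif as well. The next lines show places that lie in the promoter windows of both genes of a divergent pair, printed once from each gene's strand, so that the motif reads forward for one gene and as its complement (CGCCATCTT or CGCCATGTT) for the other.
Coq9, chr8:94838409-94838438, plus strand, position 7: gcccacttccAAGATGGCGgcgacagcagc
Ciapin1, chr8:94838408-94838437, minus strand, position −87: ctgctgtcgcCGCCATCTTggaagtgggca
Rxrb, chr17:34031648-34031677, plus strand, position −154: tacctttaccAACATGGCGgcgccccgagg
Slc39a7, chr17:34031647-34031676, minus strand, position 25: ctcggggcgcCGCCATGTTggtaaaggtat
Rxrb, chr17:34031807-34031836, plus strand, position 6: cgtctgtacaAAGATGGCGgccgcgccggt
Slc39a7, chr17:34031806-34031835, minus strand, position −135: ccggcgcggcCGCCATCTTtgtacagacgg
Emc6, chr11:73176993-73177022, minus strand, position 31: cctccagcgcAAGATGGCGgcgcgggactc
Tax1bp3, chr11:73176994-73177023, plus strand, position −79: agtcccgcgcCGCCATCTTgcgctggaggc
In each of these pairs 1 place lay just after the start of one gene and read forward on its strand, at Coq9, Rxrb and Emc6, and the Rxrb and Slc39a7 pair held another place just after the Slc39a7 start, where it read as the complement. Coq9 acts in coenzyme Q synthesis, Rxrb is a nuclear receptor, Slc39a7 a zinc transporter and Emc6 a subunit of the membrane protein insertion complex of the endoplasmic reticulum.

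A promoter window with AANATGGCG was found for 208 of the 643 matched named genes at near-end peaks (32.3%, exact 95% interval 28.7 to 36.1%), against 622 of 15603 named genes in all (3.99%, with a window for 78.4% of them). Intervals of shares here are exact Clopper-Pearson intervals and cover counting error only. Windows were found for 691 of all 892 near-end symbols (77.5%), under the minimum of 80% set for a share. Of the 778 named ones 643 had a window (82.6%), so only named genes are used for motifs. The set of all named genes, at 78.4%, also falls under this minimum, and its shares serve as a comparison only. The fuller form AAGATGGCG followed by GC, which contains AANATGGCG, stood in 77 near-end genes (12%) and 1.18% of all. The loose form AANATGG, which every longer match contains, was at 49.8% and 17.5%. A match describes letters in a window and is not a measured binding site.

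Other promoter letters differed less between near-end genes and all named genes. The ETS letters CCGGAAG, whose last bases can overlap the start of the YY1 letters, were in 22.1% of near-end and 13.6% of all genes. The GC box GGGCGG was in 65.0% and 52.9%, and CCAAT in 42.6% and 42.3%. TATAAA was less frequent at near-end genes, 9.18% against 14.3%. Genes with a peak deep in the locus gave 65.2% for the GC box and 9.2% for TATAAA, so neither set near-end genes apart from them. AANATGGCG was in 4.6% of their windows. Of these genes 77.9% had a window, also under the minimum of 80%, so their shares serve as a comparison only. The median GC content of the windows was 59.9% at near-end genes and 57.3% over all, and its part in these shares was not tested.

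Read in the other direction, 207 of 619 genes with AANATGGCG in a window and a value in both tables had a near-end YY1 peak (33.4%, 29.7 to 37.3%). Among those at 1 FPKM or more in ASC WT the share was 202 of 568 (35.6%), and among those below 1 FPKM it was 5 of 51 (9.80%). With the fuller form it was 77 of 184 (41.8%). Thus most genes with these letters had no near-end peak in this list, and the share was higher among genes also read as RNA.

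The printed windows have a further shared feature, which was looked for after they were seen. In several of them the letters GCCC stand exactly 6 bases before the motif, as in Tpgs1, Aars2, Coq9, one place each in Txndc15 and Cdk5rap2, and both places in Rrm1. Places of AANATGGCG with enough sequence before them were counted per gene. A place in the windows of both genes of a pair, as at Coq9 and Ciapin1, counts for each gene, which the intervals do not allow for. GCCC at this distance was found in 34 of 153 places at genes with a near-end peak of −log10 p at least 6 (22.2%, 15.9 to 29.6%). It was found in 4 of 70 places at genes with lower near-end peaks (5.71%) and in 9 of 406 at all other named genes (2.22%). At each other distance from 0 to 10 bases, GCCC was found at no more than 1.31% of the places of the first group. Without the genes whose windows had been extracted for printing, the share was 21 of 113 (18.6%, 11.9 to 27.0%). Genes with GCCC at this distance numbered 44, of which 35 had a near-end peak (79.5%, 64.7 to 90.2%), against 168 of 557 motif genes without it (30.2%). This count includes the genes with high peaks in whose windows the spacing was first seen, so it is partly fixed by how the pattern was found. It also counts both genes of a pair that share a place.

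The high peaks of the list were mostly near-end peaks. The median −log10 p of near-end peaks, the authors' value from their peak caller, was 5.87. It was 4.84 for peaks deep in a locus and for those outside loci. The highest fold over background of near-end peaks was 24.4, against 16.6 and 11.4. Of the 351 peaks with −log10 p of at least 6, called strong from here on, 294 were near an end, 30 deep in a locus and 27 outside. The remaining 329 near-end peaks are called weak, and this division was chosen for the text after the values were seen. The near-end share was 15.6% (13.7 to 17.7%) of 1307 peaks with −log10 p from 4 to 5, 33.8% of 370 from 5 to 6 and 78.7% of 183 from 6 to 10. It was 88.4% of 112 from 10 to 20 and 91.1% (80.4 to 97.0%) of 56 peaks at 20 or more. In the whole list 706 peaks share the same −log10 p of 4.84. A q of 0.05 or less was given for 347 of the 2028 peaks, 290 of them near-end.

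**Figure D1:**
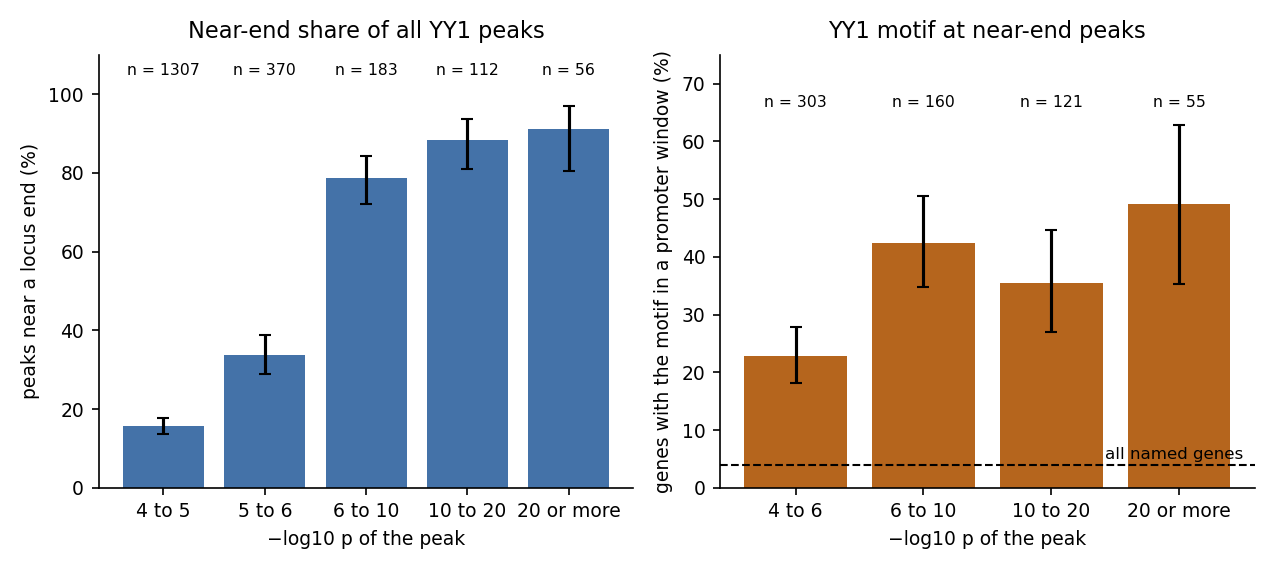
Left, share of all YY1 peaks off the Y chromosome that lie within 2 kb of a locus end (y axis, %) by the peak's −log10 p (x axis). Right, share of matched named genes at near-end peaks with AANATGGCG in a promoter window (y axis, %) by the −log10 p of the gene's highest near-end peak, with all named genes as a dashed line at 3.99%. Bars are shares, error bars exact 95% intervals for counting error, and n the number of peaks or genes; the near-end share climbs from 15.6% to 91.1%, and each bar on the right stands above the dashed line.

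The motif share followed the same division, as the plot of shares by score shows. It was 41.1% (35.8 to 46.5%) of 336 matched genes at strong near-end peaks and 22.8% (18.2 to 27.9%) of 303 at weak ones. Within the strong peaks it was 42.5% from 6 to 10, 35.5% from 10 to 20 and 49.1% at 20 or more, with intervals that overlap. Windows with 2 or more places were found for 14 of 336 genes at strong peaks (4.17%), for 5 of 307 at the remaining near-end genes (here with 4 that are listed in 1 table only) and for 7 of 14960 named genes with no near-end peak (0.0468%). Cdk5rap2, a centrosome protein, was the 1 gene with 3 places. At strong genes 72 of 153 places (47.1%) lay between 10 bases before and 50 bases after a start, against 52 of 75 (69.3%) at weak genes and 263 of 422 (62.3%) at all other named genes, a range chosen after the positions were seen.

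Summits lay close to the listed ends. The median distance from summit to nearest end was 60 bases for strong and 181 bases for weak near-end peaks. Within 200 bases were 236 of 294 strong (80.3%) and 171 of 329 weak peaks (52.0%), and the end lay inside the peak itself for 288 of the 623 (46.2%). At the limit of the rule, the 3 peaks just inside it ended 1944 to 1975 bases from a locus end (the nearest symbols included Olfr1414, Taf6l and Zfp804b), and the 3 just outside were at 2008, 2017 and 2041 bases. All 6 had scores of 48 or 58, where the median score of near-end peaks was 58.

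**Figure D2:**
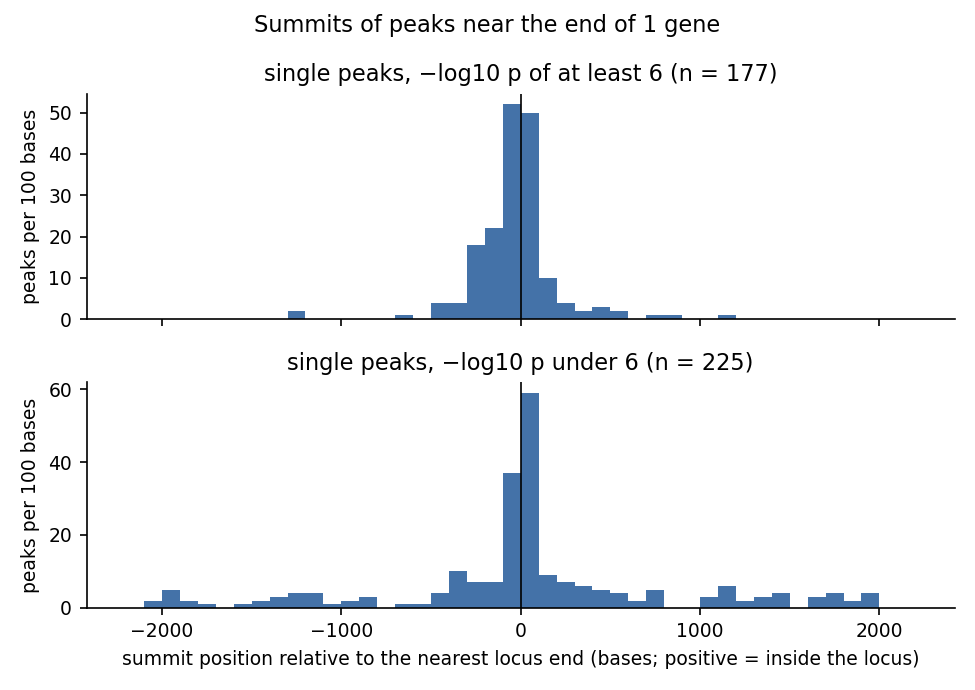
Number of single near-end peaks per 100 bases (y axis) by the position of the summit relative to the nearest locus end in bases (x axis, positive inside the locus), for 177 strong peaks (top) and 225 weak peaks (bottom). Of the strong summits 76.3% lie within 200 bases of the end and 3 beyond 1000 bases, while 49.8% of the weak ones lie within 200 bases and 56 beyond 1000.

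Where a strand could be taken from RefSeq by symbol, the ends were mostly 5′ ends. Among 375 single peaks at a named gene, 302 had a strand (80.5%), and 269 of these lay at the 5′ end (89.1%, 85.0 to 92.4%). All 133 strong ones with a strand were at the 5′ end, which allows a lowest share of 97.3%. Their summits lay at a median of 17 bases before the 5′ end, with quartiles from 109 before to 37 after it. For the weak ones 79.3% had a strand, too few for a share, and 33 of those lay at a 3′ end. Of the genes alone at their locus, AANATGGCG was in a window of 160 of 412 with a peak at the 5′ end (38.8%) and of 2 of 57 with one at the 3′ end only (3.51%). The strand comes from a newer build and rests on matching symbols.

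A near-end peak served 1 listed symbol in 402 cases (single) and 2 or more in 221 (shared, 35.5%, 31.7 to 39.4%). Strong peaks were shared in 117 of 294 cases (39.8%, 34.2 to 45.6%) and weak ones in 104 of 329 (31.6%, 26.6 to 36.9%), so the intervals overlap. Among the 56 highest peaks of the list, 51 were near-end and 13 of these were shared (25.5%). Of the shared peaks 131 lay between loci on opposite sides, 88 at symbols listed with the same locus and 2 at overlapping loci. Most shared peaks had 2 symbols (169) and the fullest had 7. With symbols of the same locus counted as 1 gene, 133 peaks were shared (21.3%), and with small RNA genes and unnamed gene models left out, 172 of 594 (29%).

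For 98 shared peaks with 2 symbols, each alone at its locus, orientation was examined, and 79 had a strand for both. In 54 of these (68.4%) both ends were 5′ ends, as at a divergent promoter, in 25 one 5′ and one 3′ end met, and in none were both 3′ ends. The difference in motif share between shared and single peaks was not tested. The motif stood in 31.9% (27.0 to 37.1%) of genes at shared and 33.0% (27.7 to 38.7%) of genes at single peaks, and within strong peaks in 36.9% (30.3 to 44.0%) and 47.4% (38.7 to 56.2%).

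The highest near-end peaks included those at Napepld, Usp31, Txndc15, Lemd2, Wbscr16 and Cdk5rap2 alone, and at Madcam1 with Tpgs1, Rxrb with Slc39a7, and Fbxo38 with 3 Spink genes. The highest, with a score of 612 and a fold of 24.4, was at Napepld (chr5:21207553-21207739, mm9), which makes N-acylethanolamines, and its 187 bases ended 389 bases from the locus end. Napepld was barely read as RNA, at 0.465 FPKM in FISC WT, 0.497 in FISC iKO, 1.28 in ASC WT and 0.597 in ASC iKO. The second peak, score 564 (chr10:79131842-79132301), was shared by Tpgs1, a tubulin polyglutamylase subunit, and Madcam1, a cell adhesion molecule of vessels. Tpgs1 stood at 3.45, 5.81, 13.6 and 20.7 FPKM in FISC WT, FISC iKO, ASC WT and ASC iKO, while Madcam1 was at 0.189 and 0.187 in the FISC libraries and listed at 0 in both ASC libraries. So the highest peak stood beside a gene with little RNA, and the next beside one gene above 3 FPKM in all libraries and one listed at 0 in ASC.

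Other high peaks stood at mitochondrial genes. Mrpl47 and Ndufb5, a mitochondrial ribosomal protein and a complex I subunit, shared a peak of score 285 (chr3:32635629-32636078). Mrpl47 went from 8.74 and 6.40 FPKM in FISC WT and iKO to 57.7 and 111 in ASC, and Ndufb5 from 36.8 and 36.7 to 88.7 and 168. Both genes of this pair were thus higher in each ASC library than in each FISC library. Ciapin1 and Coq9 (score 221, chr8:97362200-97362420) showed the same order, Ciapin1 at 3.89, 2.93, 17.5 and 22.4 FPKM and Coq9 at 8.18, 10.2, 22.9 and 49.4 in FISC WT, FISC iKO, ASC WT and ASC iKO.

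Genes at near-end peaks were mostly read as RNA in every library. Of the 882 listed in both tables, 680 were at 1 FPKM or more in FISC WT (77.1%), 685 in FISC iKO (77.7%), 686 in ASC WT (77.8%) and 683 in ASC iKO (77.4%), where over all 24053 genes the shares were 45.2, 45.4, 45 and 44.2% in the same order. Their medians were 8.43, 8.61, 14.1 and 11.9 FPKM, against 0.453, 0.468, 0.337 and 0.335 over all genes. In all 4 libraries together 652 near-end genes (73.9%) reached 1 FPKM and in none 168 (19.0%), against 39.2% and 49.6% of all genes. For genes with a peak deep in the locus the share in ASC WT was 49.8%, with a median of 0.942 FPKM. In bulk RNA, fewer cells of a type and less RNA per cell cannot be told apart.

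The level went with the height of the peak for single genes. Of 175 genes at single strong peaks, 170 were at 1 FPKM or more in ASC WT (97.1%, 93.5 to 99.1%), with a median of 19.5 FPKM, against 74.9% (68.6 to 80.5%) of 219 genes at single weak peaks. At shared strong peaks it was 76.3% (70.8 to 81.1%) of 278 genes, with a median of 13.7 FPKM, and at shared weak ones 66.7% of 210. Among named genes, single and shared peaks were close, 87.0% (83.1 to 90.2%) of 368 and 85.3% (81.5 to 88.6%) of 402, where all named genes gave 52.7%. Within strong peaks named genes were at 98.8% (95.6 to 99.8%) for single and 86.8% (81.8 to 90.9%) for shared peaks, and these intervals do not overlap. Genes at 1 shared peak are not independent, which the intervals do not count. Counted by peak, 172 of 177 single strong peaks and 116 of 117 shared strong peaks had at least 1 gene at 1 FPKM in ASC WT, and 86 of the 117 had 2 or more. For weak peaks it was 170 of 225 single (75.6%) and 94 of 104 shared ones (90.4%). Of all 10820 genes at 1 FPKM or more in ASC WT, 6.34% had a near-end peak and 3.53% a strong one.

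**Figure D3:**
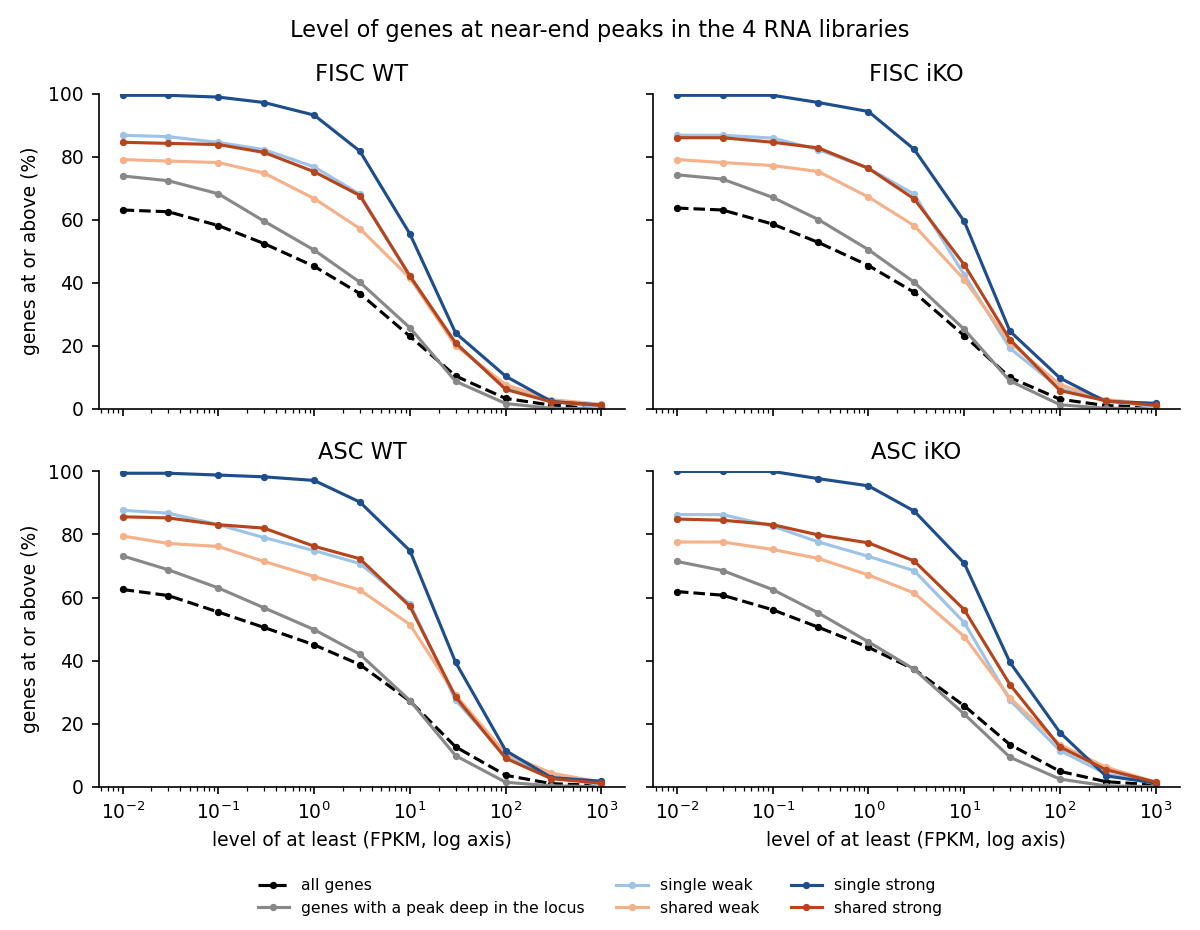
Share of genes (y axis, %) listed at or above an FPKM level (x axis, log scale) in each of the 4 RNA libraries, 1 panel per library. Lines stand for genes at single strong, shared strong, single weak and shared weak near-end peaks, genes with a peak deep in the locus, and all genes listed in both tables; in ASC WT at 1 FPKM the single strong line is at 97.1%, the shared strong line at 76.3% and all genes at 45%.

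The highest levels at near-end peaks belonged to ribosomal protein genes. Rpl41 stood at 2334, 2198, 2561 and 5559 FPKM in FISC WT, FISC iKO, ASC WT and ASC iKO, and Rpl13a at 1910, 2657, 1359 and 3160. Rps27rt, Rpl23a and Rpl35a were also among those with the highest mean. As deposited, the ASC iKO value was the highest of the 4 for Rpl41, Rpl13a, Rpl23a and Rpl35a, and Rps27rt was highest in FISC WT. With the scaling used for activation below, Rpl13a and Rpl35a were not higher in ASC iKO than in FISC iKO (log2 ratios of −0.25 and −0.00), and many ribosomal protein genes have near-identical copies that FPKM may split.

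Activation compared the ASC with the FISC library of one genotype, as log2 of (FPKM + 1) in ASC over (FPKM + 1) in FISC, after both libraries were scaled to the same FPKM sum without small RNA genes. In WT, 282 of 705 near-end genes measured were at least 2-fold higher in ASC (40.0%), where the share over all genes was 34%, and 56 were at least 2-fold lower (7.94%), where it was 15.9%. The median log2 ratio was 0.74, against 0.50 over all 11812 genes. Scaled to the upper quartile, which shifted the median of all genes by −0.42, 180 near-end genes were higher (25.5%, against 22.4% of all genes) and 89 lower (12.6%, against 22.1%), and their median stayed 0.22 above that of all genes. Genes with a peak deep in the locus had 117 higher and 78 lower of 433 and a median of 0.37. Single and shared peaks gave nearly the same values, 140 higher and 30 lower of 344 genes with a median of 0.74, and 142 higher and 26 lower of 361 with a median of 0.74. Strong and weak peaks were as close, with medians of 0.73 and 0.76, while other divisions differed more. Genes at shared peaks between loci on opposite sides had 107 higher and 14 lower of 243 and a median of 0.83, and those at peaks of the same locus 35 higher and 12 lower of 116 and a median of 0.53. At single weak peaks 21 of 172 genes were lower (12.2%) and at single strong ones 9 of 172 (5.23%). The WT and iKO activations come from different libraries, but WT activation and the iKO over WT ratio in ASC share the ASC WT library.

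Genes with the highest WT activation included mitotic and mitochondrial genes. Aurka, a mitotic kinase, stood at 0.747 FPKM in FISC WT and 0.472 in FISC iKO, and at 20.4 in ASC WT and 11 in ASC iKO, a WT log2 ratio of 3.69. Ndc80, a kinetochore subunit, was at 0.0576 and 0.229 in FISC and at 11.4 and 8.35 in ASC (3.60). Mrpl18 was at 6.83 and 6.88 FPKM in FISC WT and iKO and at 69.9 and 108 in ASC (3.28), and Ccdc58 at 6.92, 8.49, 69.95 and 209 (3.27). Both ASC libraries were above both FISC libraries for each of these 4 genes. Eno1, the glycolytic enolase, was at 102 and 91.8 FPKM in FISC WT and iKO, 1032 in ASC WT and 289 in ASC iKO (3.44), and reads may be shared with its copy Eno1b. Knstrn, a spindle protein, had 0.474 and 1.42 in FISC and 12.1 and 11.5 in ASC.

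Genes with the lowest WT activation mostly had weak peaks. Among the highest, Aurka also had a weak peak (score 40) and Ccdc58 a strong one (score 104). Of all measured genes at strong peaks 40% were at least 2-fold higher and 6.41% lower, and at weak peaks 40% and 9.84%, against 34% and 15.9% over all genes. Pnrc1, a nuclear receptor coactivator, stood at 298 and 339 FPKM in FISC WT and iKO and at 13.6 and 34.9 in ASC, a WT log2 ratio of −4.25, and its peak summit lay 1122 bases from the locus end. Ppp1r15a, a stress-induced phosphatase subunit, was at 529, 559, 37.2 and 86.4 FPKM (−3.69), with a summit 1031 bases away. Hr, a corepressor, stood at 32.2 and 25.1 in FISC and 0.621 and 0.319 in ASC (−4.28). Rcan1, an inhibitor of calcineurin, was the exception in height, with a single peak of score 201 (chr16:92466513-92466687) with the summit 213 bases from its 5′ end, at 107 and 83.0 FPKM in FISC WT and iKO and 8.45 and 14.2 in ASC. Plekha4, Ttyh1 and Plekha6 were also among the lowest, with WT log2 ratios from −4.07 to −2.74.

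In the iKO libraries, 199 of 704 near-end genes were at least 2-fold higher in ASC than in FISC (28.3%), where the share over all genes was 23.4%, and 130 were at least 2-fold lower (18.5%), against 27.8%. The median was 0.16 at near-end genes and −0.05 over all. The scaling moves these values, since the ASC iKO library holds 40.1% of its FPKM sum in small RNA genes, where the other 3 libraries hold 0.587 to 0.613%. The median over all genes shifted by −0.63 when all genes were used for scaling and by 0.43 with FPKM as deposited, but near-end genes stayed 0.18 to 0.25 above it. In the first case 102 near-end genes were higher (14.5%, against 12.4% of all) and 243 lower (34.5%, against 41.6%). In the second 278 were higher (39.5%, against 33.7%) and 65 lower (9.23%, against 20.6%). The 8 genes with the highest ratio included Ccdc58, Mrpl47, Mrpl18, Mrps22, Mrpl11, Rad1 and Ppih, and Atp6v0c-ps2, a pseudogene copy whose reads are uncertain. Mrps22 was at 6.92, 3.82, 60.5 and 82.6 FPKM in FISC WT, FISC iKO, ASC WT and ASC iKO, Mrpl11 at 2.62, 2.87, 18.2 and 44.2, and Ppih, a splicing-associated isomerase, at 7.28, 7.16, 63.9 and 102.6. Dot1l, the histone H3 lysine methyltransferase, had one of the lowest, at 120 and 115 FPKM in FISC WT and iKO, 17.7 in ASC WT and 3.37 in ASC iKO.

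Between iKO and WT in ASC, near-end genes were close to all genes. As deposited, 79 of 696 were at least 2-fold higher in iKO (11.4%), where the share over all 11182 genes was 8.71%, and 56 were at least 2-fold lower (8.05%), against 8.28%. The median log2 ratio was 0.05 at near-end and −0.00 over all genes. The classes of peaks differed more than the whole did. Genes at shared peaks had 53 higher and 24 lower of 361 and a median of 0.16, genes at single peaks 26 higher and 32 lower of 335 and a median of −0.08, and genes at shared strong peaks 32 higher and 12 lower of 218 and a median of 0.28. Scaling to the FPKM sum without small RNA genes moved the median of all genes by −0.50, which put the near-end median below 0, after which 15 near-end genes were higher (2.16%, against 1.65% of all) and 164 lower (23.6%, against 23.4%), and the near-end median of −0.47 stood 0.03 above that of all genes. So the share of near-end genes that were lower in the library labelled iKO was near that of all genes.

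Locus length went with this ratio over all genes and at near-end genes alike. Genes were split into 4 equal groups by length. In the group with loci up to 10.5 kb the median log2 ratio was 0.48 over all and 0.60 at near-end genes, with 50 of 183 near-end genes at least 2-fold higher (27.3%, against 21.2%). In the group with the longest loci, over 57.9 kb, it was −0.43 and −0.35, with 24 of 146 lower (16.4%, against 16.8%). In the group up to 10.5 kb, shared and single near-end genes were at 0.62 and 0.56, and in the next, up to 24.5 kb, at 0.23 and 0.10. Up to 57.9 kb they were at −0.14 and −0.21, and in the group with the longest loci at −0.24 and −0.39. The median locus was 24.1 kb for genes at shared peaks, 23.7 kb at single peaks and 124.5 kb for genes with a deep peak. Among shared peaks it was 17.0 kb between loci on opposite sides and 40.1 kb at symbols of the same locus. The part of locus length in the ratio was not tested.

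Among near-end genes with no near-identical copy known to share their reads, Glg1, a Golgi glycoprotein with a locus of 101645 bases, was the lowest in ASC iKO. It stood at 11.6 and 12.4 FPKM in FISC WT and iKO, at 32.2 in ASC WT and at 2.85 in ASC iKO, a log2 ratio of −3.11. Dot1l followed at −2.10 and Hnrnpul1, an RNA-binding protein whose peak is shared with Axl, at −1.98 (30.03, 36.9, 61.5 and 14.8 FPKM in FISC WT, FISC iKO, ASC WT and ASC iKO). Kmt2e, with 24.4, 22.0, 11.8 and 2.06 FPKM, was at −2.07 and shares its locus with another symbol. On the other side, Ufc1, a ufmylation enzyme, stood at 41.6, 48.3, 61.7 and 223 FPKM (1.84) and Snrnp35, a protein of the minor spliceosome, at 8.91, 11.4, 13.5 and 45.2 (1.68). BC051226 and Hspb11 were at 2.33 and 1.64. For Eif3j1, Zbed6, Rps27, Atp6v0c-ps2, Nrp, Ndufa2, Acat3 and Eno1, also among the 16 most extreme, a near-identical copy or a symbol at the same locus makes the split of reads uncertain.

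In FISC few near-end genes differed between the genotypes. At least 2-fold higher in iKO were 8 of 693 (1.15%), where the share over all genes was 0.678%, and 1 was lower (0.144%), against 0.705%, and the median was −0.02. The 1 lower gene was Eif3j2, whose near-identical copy Eif3j1 was among the higher ones. Lars2, the mitochondrial leucyl-tRNA synthetase, was at 142 FPKM in FISC WT, 472 in FISC iKO, 464 in ASC WT and 627 in ASC iKO, and Akt1s1, a subunit of the mTOR complex, at 17.8, 46.97, 62.7 and 196. Both were lowest in FISC WT, and Akt1s1 shares its listed locus with another symbol, so the split of its reads is uncertain. Akt1s1 was highest in ASC iKO, while for Lars2 this holds as deposited only, since its scaled log2 ratio of ASC over FISC in iKO was −0.09. Ampd3, at 83.1, 42.4, 26.7 and 10.01, Zfp414 and Gpr137 lay just short of 2-fold lower.

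**Figure D4:**
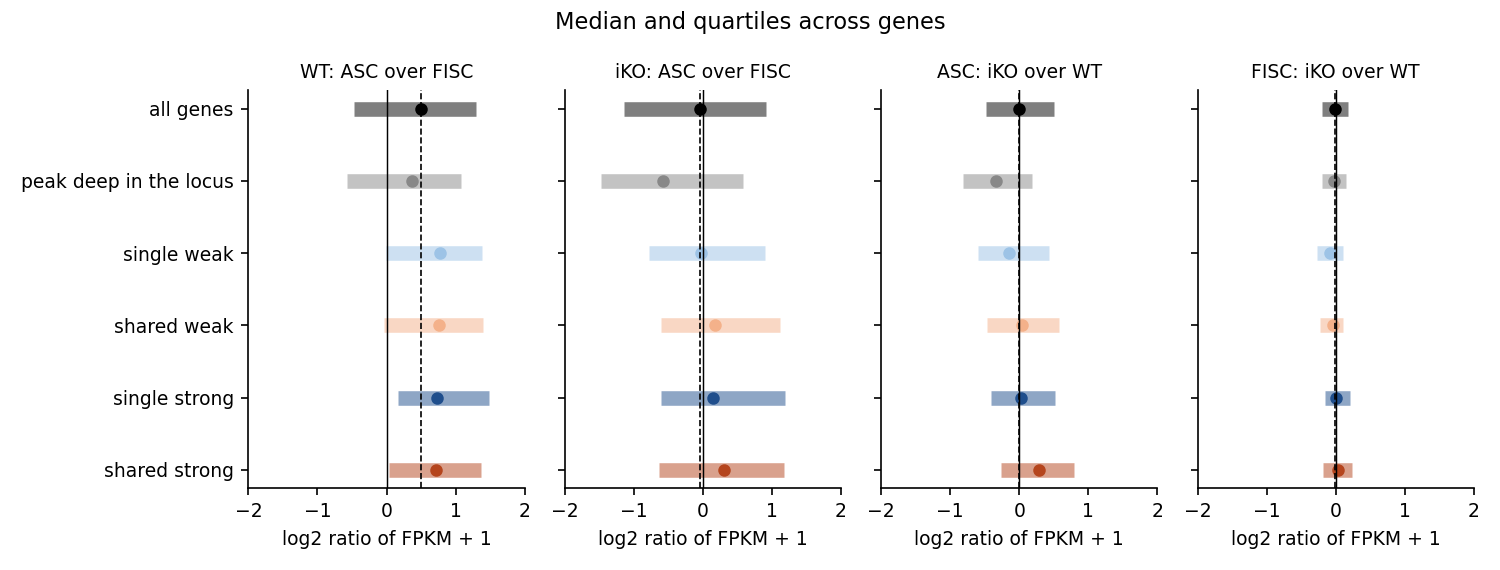
Median (points) and quartiles across genes (bars) of the log2 ratio of FPKM + 1 (x axis) for each class of genes (y axis), in 4 panels: ASC over FISC in WT and in iKO, and iKO over WT in ASC and in FISC. The solid line marks 0 and the dashed line the median of all genes; all 4 near-end classes stand right of the dashed line in the WT activation panel, and in ASC the shared strong genes stand at 0.28 while genes with a deep peak stand at −0.33.

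Genes that share a peak were next compared as pairs. In 109 pairs of named genes with a WT activation ratio each, both were at least 2-fold higher in 24, both lower in 3, and the genes went opposite ways in 5, while 47 had 1 gene past 2-fold and 30 had none. The median difference between the log2 ratios of a pair was 0.86. No value for pairs of unrelated genes was computed, so these counts only describe the pairs. Taken singly, 40.0% of near-end genes were at least 2-fold higher and 7.94% lower, against 34% and 15.9% over all genes. Some of the pairs, Eng with Fpgs and Ang with Rnase4 among them, are listed with the same locus, so the split of their reads is uncertain. Among 39 pairs with both 5′ ends at the peak, both genes were higher in 14, both lower in none and opposite in 1. These 14 included Mrpl46 with Mrps11, both of the mitochondrial ribosome (9.86 and 8.61 FPKM in FISC WT, 35.0 and 29.3 in ASC WT), Pfdn6 with Wdr46 and Polr1a with Ptcd3.

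The pairs that differed most and least show that one peak can sit beside genes of unlike or like activation. Mtx1, of the mitochondrial outer membrane, and Thbs3, a matrix thrombospondin, share a peak of score 79 (chr3:89017764-89017891), with Mtx1 at 13.2, 11.7, 39.3 and 74.9 FPKM and Thbs3 at 6.77, 7.70, 0.307 and 0.495 in FISC WT, FISC iKO, ASC WT and ASC iKO. Gart, a purine synthesis enzyme, went from 9.33 and 9.78 to 71.7 and 44.8, while Son, a splicing cofactor across the shared peak, stood at 95.0 and 79.7 in FISC and 72.8 and 49.0 in ASC. Mtx1 against Thbs3 differed by 4.12 in log2 ratio and Gart against Son by 3.19. Emc6 and Tax1bp3, whose shared motif is printed above, had WT log2 ratios of 0.79 each, with 28.6 and 15.8 FPKM in FISC WT and 46.6 and 26.0 in ASC WT. Their values in ASC iKO went apart, 95.6 for Emc6 and 20.0 for Tax1bp3.

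By function, the lists with the largest shares of near-end peaks were those of mitochondrial ribosomal proteins, complex I and aminoacyl-tRNA synthetases, with intervals that overlap. Of 77 mitochondrial ribosomal protein genes 22 had one (28.6%, 18.8 to 40.0%), of 37 complex I genes 9 (24.3%) and of 40 aminoacyl-tRNA synthetases 9 (22.5%), where the share was 3.65% of all symbols and 6.34% of genes at 1 FPKM or more in ASC WT. Splicing and small nuclear ribonucleoprotein genes had 15 of 97 (15.5%), nuclear pore and transport genes 8 of 51 (15.7%) and RNA polymerase subunits 4 of 28 (14.3%). The proteasome had 5 of 50 (10%), ubiquitin conjugation and cullin ligases 13 of 142 (9.15%) and translation factors 7 of 66 (10.6%). Cytosolic ribosomal proteins had 7 of 87 (8.05%, 3.30 to 15.9%), near the share of expressed genes. For strong peaks alone the order of these 3 lists changed, with 20% of the synthetases, 16.9% of the mitochondrial ribosomal and 16.2% of the complex I genes. At the synthetases 8 of the 9 peaks were strong, those of Farsa (score 270) and Aars2 (255) the highest.

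**Figure D5:**
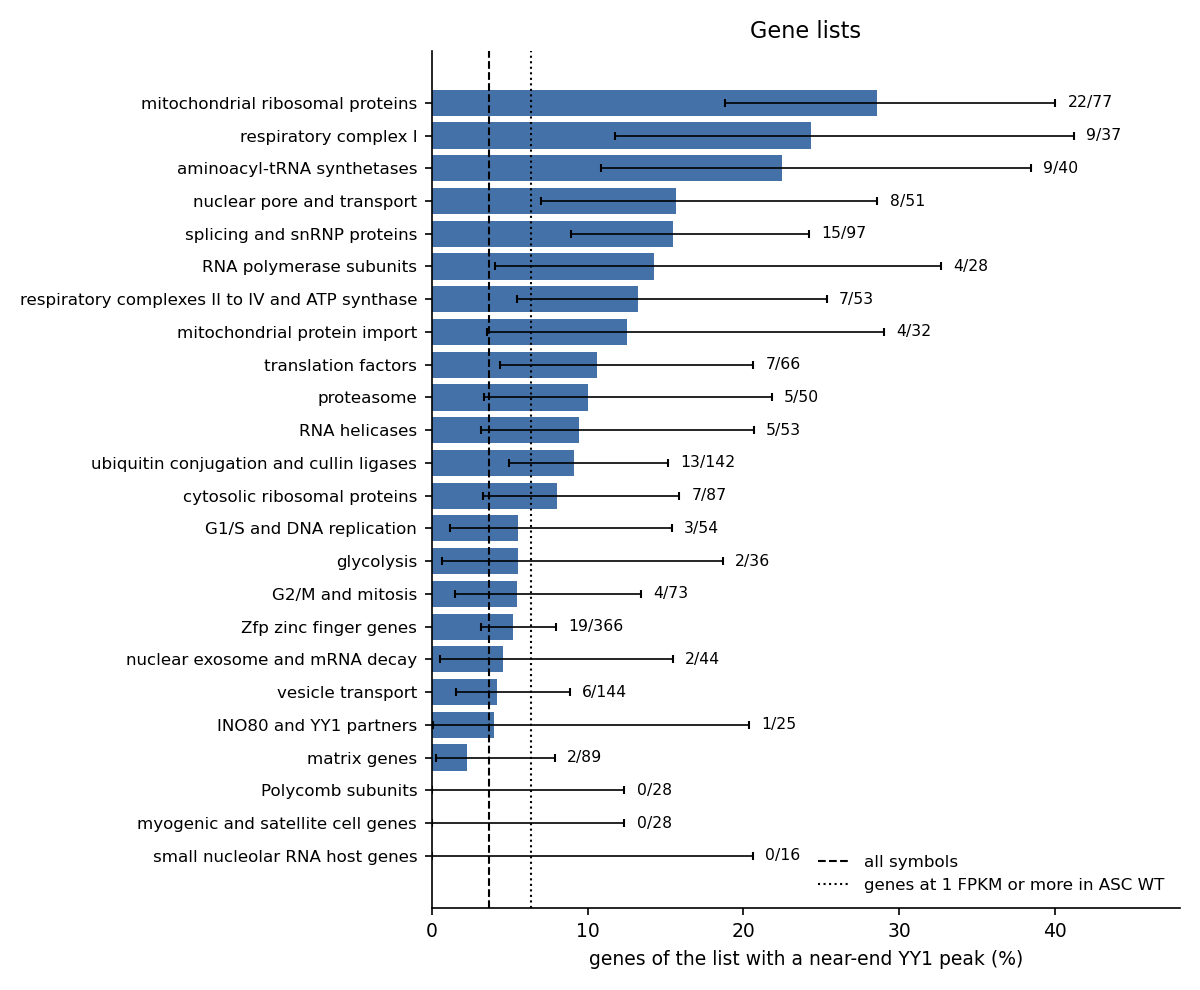
Share of the genes of each of the 24 lists (y axis) with a near-end YY1 peak (x axis, %), with exact 95% intervals for counting error and the counts beside each bar. The dashed line marks all symbols (3.65%) and the dotted line genes at 1 FPKM or more in ASC WT (6.34%); mitochondrial ribosomal proteins (22 of 77), complex I (9 of 37) and aminoacyl-tRNA synthetases (9 of 40) stand highest, and 3 lists have none.

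Members of a list with a near-end peak had ratios close to the whole list in some lists and not in others. In WT activation 20 of the 22 mitochondrial ribosomal genes with a near-end peak were at least 2-fold higher in ASC, with a median log2 ratio of 2.096, against 65 of 77 and 1.89 for the list. In ASC iKO over WT 7 of the 22 were higher and none lower, with a median of 0.80, against 25 of 77 and 0.79. Mrps18a, with a single strong peak (chr17:46247892-46248036) and the motif printed above, stood at 31.0, 27.4, 55.2 and 164 FPKM in FISC WT, FISC iKO, ASC WT and ASC iKO. The 9 complex I genes gave 5 higher in WT activation and a median of 1.09, against 24 of 37 and 1.36. The 9 synthetases gave 4 higher and a median of 0.97, against 28 of 40 and 1.57 for the list, with Farsa at 26.8, 25.4, 65.5 and 73.1 FPKM. The 8 nuclear pore and transport genes had a median of 0.63 against 1.30, and the 4 RNA polymerase subunits 1.25 against 1.85. Eno1 and Pgam5, picked up by the symbol pattern of the glycolysis list, together had 2.61 against 0.63, though Pgam5 is not a glycolytic enzyme. In ASC iKO over WT the 7 genes of complexes II to IV and ATP synthase had a median of 0.27 against 0.97. The proteasome members gave 4 of 5 and 1.76, against 35 of 48 and 1.64, with Psmb5, a catalytic subunit, at 50.4, 63.6, 226 and 441.

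Other lists had few or no near-end peaks. The cell cycle lists had 3 of 54 genes for G1/S and replication and 4 of 73 for G2/M and mitosis, close to the background shares. Rrm1, a ribonucleotide reductase subunit with a strong peak (score 182) and both motif places printed above, went from 10.8 and 11.2 FPKM in FISC WT and iKO to 69.3 and 47.6 in ASC. In the glycolysis list, drawn up by symbol pattern, Eno1 and Pgam5 had one, 2 of 36, and Pgam5 is a protein phosphatase rather than a glycolytic enzyme. None of 28 myogenic and satellite cell genes, 28 Polycomb subunits and 16 small nucleolar RNA host genes of the Snhg series had a near-end peak. With these list sizes that allows shares of up to 12.3, 12.3 and 20.6%, so the share over all symbols, 3.65%, lies within each limit. Hosts outside the Snhg series were not in the list, and the near-end peak at Rpl13a is shared with Snord32a, Snord33, Snord34 and Snord35a. Among INO80 subunits and YY1 partners 1 of 25 had one, Actr8. In the matrix list 2 of 89 genes had one, Col9a3 and Mmp12, both below 1 FPKM in each library. Thbs3, named above with a near-end peak, is not in this list.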

How the data were processed

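The authors deposited FPKM per gene in 2 tables (ASC and FISC) and 1 YY1 peak list in the narrowPeak layout, per the file headers and values. Per the submitters' processing notes, TopHat2, Cufflinks version 2.2.1, MACS2 version 2.1.0 and the mm9 build were used, with no roles stated. No source used here gives the annotation, the strand setting or the step that reduced a peak list numbered to 20534. The deposited score equals the truncated 10-fold −log10 p in all 2031 peaks. The deposited fold enrichment ratio, −log10 p and −log10 q are the authors' values and only describe and rank peaks. The depth behind FPKM is unknown, so it carries no interval.

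Distances, counts and log2 ratios were computed with Python 3.11.15, pandas 2.3.3, numpy 2.4.6, scipy 1.17.1 and matplotlib 3.10.9. Ratios used a pseudocount of 1, which understates low genes, and genes with 1 FPKM or more in either library. The iKO over WT ratios use FPKM as deposited. The ASC and FISC tables may have been normalized separately, so activation is description only. Scripts were tested on simulated data. Genes named were the extremes of each ratio at 5 FPKM or more (8 per side, 4 in FISC), the 6 highest levels, the 10 highest and 10 highest shared peaks, 3 peaks each side of the limit, 3 genes per list and 3 pairs at each extreme. MicroRNA, snoRNA, snRNA and other small RNA symbols and gene models without a name (Gm numbers, Rik, LOC) count as unnamed. Mrpl46, Pfdn6, Polr1a, their partners and the Rrm1 windows were named after their values were seen. Members, lists and motifs were chosen with earlier results of these data known, and the restriction of motifs and strands to named genes after their shares had been seen. Some genes that the rule names are not reported here.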

Additional observations from a re-analysis of the deposited data

Results flagged for a closer look

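Eif3j1, a translation initiation factor subunit, had a log2 iKO over WT ratio of −4.1 in ASC and 4.66 in FISC, and Rps27, a ribosomal protein gene, −1.88 and 4.10, so that each went opposite ways in the activated and the fresh state. The difference was not tested, as each group has 1 library. Both have near-identical copies (Eif3j2 and Rps27rt) listed at the same locus, so their values are uncertain. These were the 2 near-end genes past 2-fold in opposite directions.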

How the results depend on the processing

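No paired analysis was possible because each group has 1 library; for the same reason no replicate could be left out. Of the recomputed summary values 86 moved little and 47 moved, and the medians of iKO activation and of iKO over WT in ASC and FISC changed sign with the scaling. With peaks of −log10 p at least 6 only, 294 near-end peaks remained, 39.8% of them shared, the shares of genes at 1 FPKM or more were 82.1, 83.2, 84.3 and 84.3% in FISC WT, FISC iKO, ASC WT and ASC iKO, and 85 list members had a peak in place of 154. A 1 kb limit gave 81.0, 81.7, 82.3 and 82.0%, and a level of 5 FPKM gave 61.6, 61.3, 70.2 and 67.6%. Shared peaks made up 29% without small RNA genes and unnamed models and 21.3% with symbols of 1 locus counted as 1. With named genes only, 85.3% of genes at shared peaks reached 1 FPKM in ASC WT.

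In WT activation, upper quartile scaling gave 180 higher, 89 lower and a median of 0.30, FPKM as deposited a median of 0.64, no filter 0.41, and the nearest gene only 36 lower. In iKO activation, scaling to all genes gave 102 higher, 243 lower and a median of −0.49, FPKM as deposited 65 lower and 0.63, and no filter a median of 0. For iKO over WT in ASC, the sum without small RNA genes gave 15 higher, 164 lower and −0.47. The upper quartile gave 48 higher and −0.11, with 5.27% higher and a median of −0.16 over all genes. Leaving out genes that share a locus gave 37 lower. In FISC the sum without small RNA genes gave a median of 0.016 and the upper quartile 0.019. A pseudocount of 0.1 gave 13 higher and 7 lower, and a 5 FPKM filter 5 higher. The nearest gene only and the genes with a locus of their own each gave 5 higher and 0 lower. For the pseudocount, filter, nearest-gene and own-locus counts the shares over all genes are not given here. These counts therefore describe the setting and not near-end genes. The motif share was 12% with AAGATGGCG followed by GC and 49.8% with AANATGG. The causes were not tested. Of the alternatives, 3 were chosen after seeing the data.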
